A study of Mus musculus with 2 samples.

Results

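Of the 131279 regions enriched for methylated DNA that were listed for the liver of a Pemt+/+ mouse, 35205 held between 25 and 79 sequenced tags, and 2794 of these (7.94%) overlapped no listed region of the Pemt-/- mouse by as much as 1 bp. These 2794 regions, called Pemt+/+-only below, were chosen by their tag number in the Pemt+/+ library and by the absence of an overlapping entry in the Pemt-/- list, so tags, score and fold enrichment are given as descriptions and the absence itself is not a finding. The other 32411 regions of the same tag range, which overlapped a Pemt-/- region, are called shared. Pemt is the liver enzyme that methylates phosphatidylethanolamine to phosphatidylcholine with S-adenosylmethionine as the methyl donor. Both animals were male mice on high fat-high sucrose (HFHS) chow, and the deposited descriptions give an age of 5 weeks at the start of feeding and of 25 weeks when the liver was taken, whereas the methods of the study give shorter feeding times for this assay. There was 1 library from 1 mouse per genotype, so animal, library and genotype cannot be told apart and no test between genotypes was possible. The descriptions also mention bisulphite conversion before the enrichment, which the methods do not. A list of regions carries no expression, so the identity of the tissue could not be checked against marker genes.

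DNA methylation in mammals sits mainly on the cytosine of CpG dinucleotides. Most CpGs in gene bodies and between genes are methylated, whereas CpG-rich promoters of active genes are usually free of it, and imprinted genes carry it on the copy from 1 parent. Enrichment kits collect methylated fragments with a methyl-CpG binding protein, and the tag number of a region rises with the number of methylated CpGs, with the share of cells that carry them and with sequencing depth. The Pemt+/+ list held 2847831 tags in regions of 9 to 3368 tags, and the Pemt-/- list held 1582080 tags in 97063 regions of 8 to 2589 tags. A region missing from the Pemt-/- list was not called in that library, and it is not shown to be free of tags.

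Pemt+/+-only regions that overlapped the 5′ end of a transcript lay where methylation is most often related to transcription, and the sequence before the start is given for 5 of them. Each run below is the 250 bases before the RefSeq start in GRCm38.p6, on the strand of the gene, with every CpG in capitals. The coordinates are chr13:43365285-43365534 (+ strand) for Sirt5, a mitochondrial deacylase, chr6:58907127-58907376 (- strand) for Nap1l5, an imprinted gene, chr4:150119094-150119343 (+ strand) for Slc2a5, the fructose transporter GLUT5, chr5:65348161-65348410 (+ strand) for Klb, the co-receptor of FGF21 on hepatocytes, and chr19:6384158-6384407 (+ strand) for Pygm, the muscle glycogen phosphorylase.
Sirt5: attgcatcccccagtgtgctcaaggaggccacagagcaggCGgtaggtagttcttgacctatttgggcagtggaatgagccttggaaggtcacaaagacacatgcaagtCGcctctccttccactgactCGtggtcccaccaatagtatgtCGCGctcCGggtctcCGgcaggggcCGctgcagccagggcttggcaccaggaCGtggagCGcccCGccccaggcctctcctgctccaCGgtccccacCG
Nap1l5: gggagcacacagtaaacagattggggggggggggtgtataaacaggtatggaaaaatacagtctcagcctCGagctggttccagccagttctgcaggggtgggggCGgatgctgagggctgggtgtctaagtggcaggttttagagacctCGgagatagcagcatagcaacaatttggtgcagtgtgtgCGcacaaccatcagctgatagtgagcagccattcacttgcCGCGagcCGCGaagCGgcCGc
Slc2a5: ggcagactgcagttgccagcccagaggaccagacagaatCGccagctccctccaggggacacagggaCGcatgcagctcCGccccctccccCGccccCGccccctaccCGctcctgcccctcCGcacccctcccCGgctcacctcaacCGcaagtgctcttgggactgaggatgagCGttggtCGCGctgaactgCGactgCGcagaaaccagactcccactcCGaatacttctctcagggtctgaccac
Klb: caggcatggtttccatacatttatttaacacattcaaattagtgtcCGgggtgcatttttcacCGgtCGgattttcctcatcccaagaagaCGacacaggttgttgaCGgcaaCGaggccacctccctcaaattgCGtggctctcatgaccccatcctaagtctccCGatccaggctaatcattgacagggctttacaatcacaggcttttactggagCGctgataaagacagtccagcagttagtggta
Pygm: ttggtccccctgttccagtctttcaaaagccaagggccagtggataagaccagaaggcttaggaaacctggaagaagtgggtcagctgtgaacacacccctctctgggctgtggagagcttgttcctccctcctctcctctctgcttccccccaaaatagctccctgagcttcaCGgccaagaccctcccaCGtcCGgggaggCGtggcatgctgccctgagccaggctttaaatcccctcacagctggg
The run of Slc2a5 held 15 CpGs, that of Sirt5 13, that of Nap1l5 10, that of Klb 9 and that of Pygm 4. All of these counts lay between the quartiles over all genes, 2 and 16 CpGs. In the mm9 coordinates of the deposited list, the Sirt5 region reached from 193 bases before the transcript start to 511 bases after it and the Klb region from 256 bases before to 686 bases after. The Slc2a5 region began 150 bases before the start and ended 541 bases after it, and the Pygm region covered 6 bases before and 403 bases after. These distances come from the transcripts of the list, whose starts can differ from the RefSeq starts of the printed runs. For Nap1l5 no distance could be worked out. The CpG counts describe the printed runs and not the regions, which at Pygm hardly reached before the start.

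Among genes with a single RefSeq promoter entry, the 250 bases before the start held a median of 5.5 CpGs (2 to 17) for the 12 such genes with a Pemt+/+-only region over their 5′ end. The median was 7.5 CpGs (quartiles 5 and 12) for 66 genes with a shared region there and 5 CpGs (quartiles 2 and 16) over all 22862 genes. A CpG was present in 12 of the 12, in 63 of the 66 and in 91.1% of all runs. With 12 genes the first median is imprecise and no difference was read from it.

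The Pemt+/+-only regions were the weaker part of their tag range. Their median was 29 tags (quartiles 26 and 33) against 34 tags (29 and 44) for shared regions. Median fold enrichment over the background, as the authors' peak caller gave it, was 12.5 against 23.2, and the median score (-10log10 of the caller's p-value) was 123 against 220. The share of regions without an overlapping Pemt-/- region fell with tag number, from 14.2% (95% Wilson interval 13.6 to 14.9) at 25 to 29 tags to 7.39% at 30 to 39 tags, 3.15% at 40 to 49 tags, 1.90% at 50 to 59 tags and 1.06% (0.719 to 1.56) at 60 to 79 tags. At the limits of the rule the share was 18.6% at 24 tags and 17.4% at 25 tags, and it was 0 of 44 regions at 79 tags, which allows up to 6.82%, and 1 of 49 at 80 tags. All intervals here cover counting error only and treat regions as independent, which neighbouring regions are not.

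**Figure D1:**
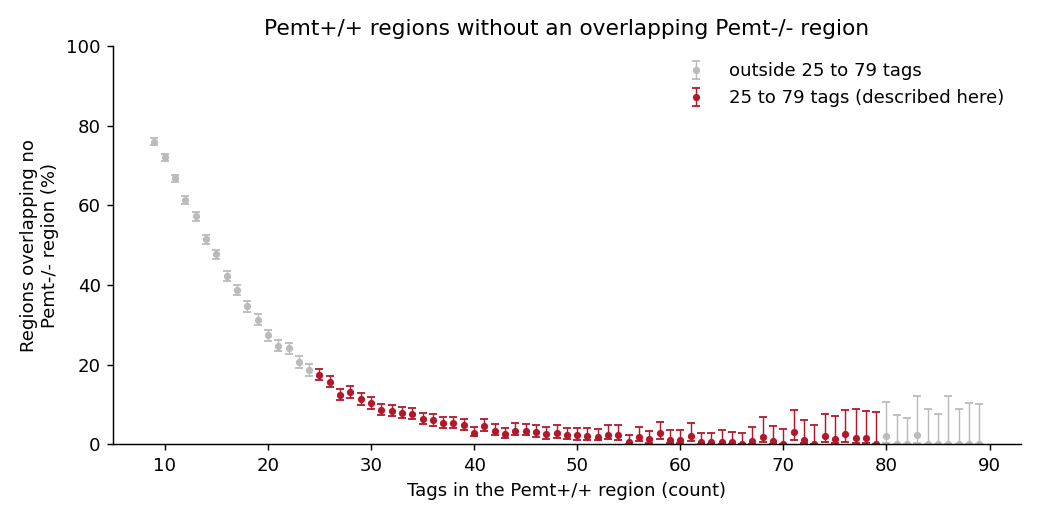
Each point is the share (%) of Pemt+/+ regions with a given tag number (x axis, count) that overlapped no Pemt-/- region, with its 95% Wilson interval. Red points are the 25 to 79 tags described here, where the share falls from 17.4% at 25 tags to 0 of 44 regions at 79 tags, and grey points lie outside the range.

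The nearest Pemt-/- region was usually close by. The gap had a median of 2329 bp (quartiles 930 and 4919 bp) and ranged from 14 bp to 318188 bp, with 396 regions (14.2%) within 500 bp of a Pemt-/- region and 356 (12.7%) more than 10 kb from any. At the other side of the rule, the smallest overlap of a shared region was 10 bp, only 4 shared regions overlapped by 50 bp or less, and the median shared region had 88.8% of its length covered by a single Pemt-/- region. Pemt+/+-only regions stood among more Pemt+/+ regions, with a mean of 2.44 others within 10 kb against 1.62 for shared regions. The means for Pemt-/- regions within 10 kb were 1.94 and 2.22, where the count of a shared region includes the Pemt-/- region it overlaps. Another Pemt+/+-only region lay within 10 kb of 483 Pemt+/+-only regions (17.3%, 15.9 to 18.7) and of 7.15% (6.87 to 7.43) of shared regions. These contrasts were not weighted to fold enrichment.

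The tags of shared regions near a Pemt+/+-only region are a description only, since a shared region had to hold 25 to 79 Pemt+/+ tags and to be listed in the Pemt-/- mouse, which leaves out neighbours with few Pemt-/- tags. In 2241 shared regions within 10 kb of a Pemt+/+-only region and paired with a single Pemt-/- region, the Pemt-/- tags were a median 0.615 times the Pemt+/+ tags (quartiles 0.514 and 0.733). In 29476 shared regions with none in that distance the ratio was 0.582 (0.477 and 0.705). Fold enrichment differed between these sets (median 14.6 against 24.2), and within the band of 8 to 12 fold the ratios were 0.630 and 0.613. Pairs in which the Pemt-/- region held more tags than the Pemt+/+ region made up 2.12% of all 31717 pairs.

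Pemt+/+-only regions lay inside transcripts more often than shared regions of the same tag range. A transcript was overlapped by 1325 of 2794 (47.4%, 45.6 to 49.3) against 12436 of 32411 (38.4%, 37.8 to 38.9), a difference of 9.05 percentage points (95% Newcombe interval 7.13 to 10.98). Most of these lay wholly inside a transcript, 45.8% against 37.3%, and the list does not separate exons from introns. No transcript within 10 kb was given for 1250 (44.7%, 42.9 to 46.6) against 53.3%. Within 10 kb downstream of a transcript lay 8.55% (7.57 to 9.65) against 6.67% (6.40 to 6.95), and within 10 kb upstream 5.91% (5.09 to 6.84) against 6.29% (6.03 to 6.56), where the intervals overlapped. Weighted to the tag numbers of the Pemt+/+-only regions, shared regions overlapped a transcript in 38.7%. Weighted to their fold enrichment, which was lower in the Pemt+/+-only regions, shared regions overlapped a transcript in 45.9%, and the difference was 1.55 points.

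**Figure D2:**
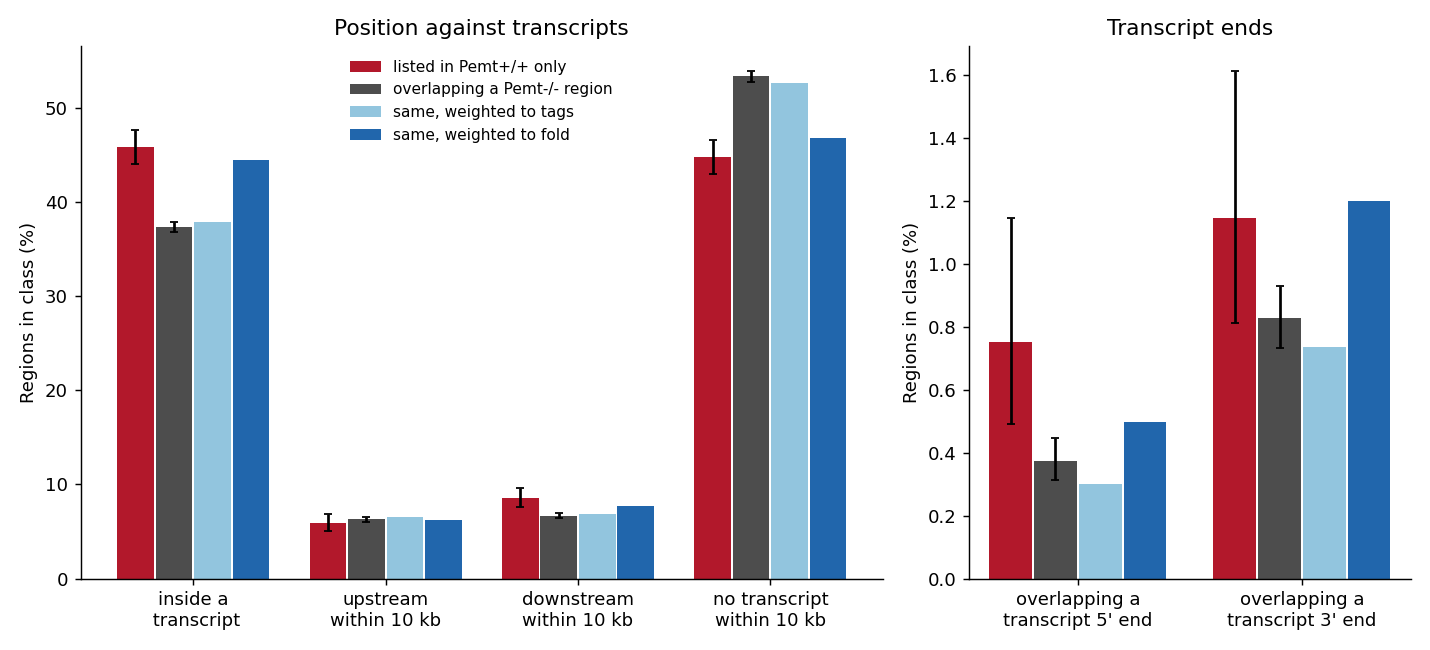
Bars give the share of regions (%) in each position class for the 2794 Pemt+/+-only regions, the 32411 shared regions, and the shared regions weighted to the tag numbers or to the fold enrichment of the Pemt+/+-only regions, with 95% Wilson intervals on unweighted shares. The red bar for regions inside a transcript (45.8%) stands above the shared bar (37.3%) and close to the bar weighted to fold enrichment (44.5%).

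Within bands of fold enrichment the overlap with transcripts changed along the bands more than between the sets. Up to 8 fold, 444 regions were Pemt+/+-only and 556 were shared (44.4% Pemt+/+-only), and a transcript was overlapped by 57.4% of these and by 55.9% of the shared regions. From 8 to 12 fold the shares were 51.8% (48.5 to 55.1) and 47.7% (45.8 to 49.6), and from 12 to 16 fold they were 48.3% and 45.1%. From 16 to 24 fold they were 42.4% and 39.7%, and above 24 fold, where 2.34% of regions were Pemt+/+-only, they were 31.0% and 33.4%. The Pemt+/+-only share was the higher in each band up to 24 fold, and the order turned round above 24 fold. The intervals of both sets overlapped in every band. Such overlap does not show that the shares were equal, and no interval of the difference was worked out by band.

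**Figure D3:**
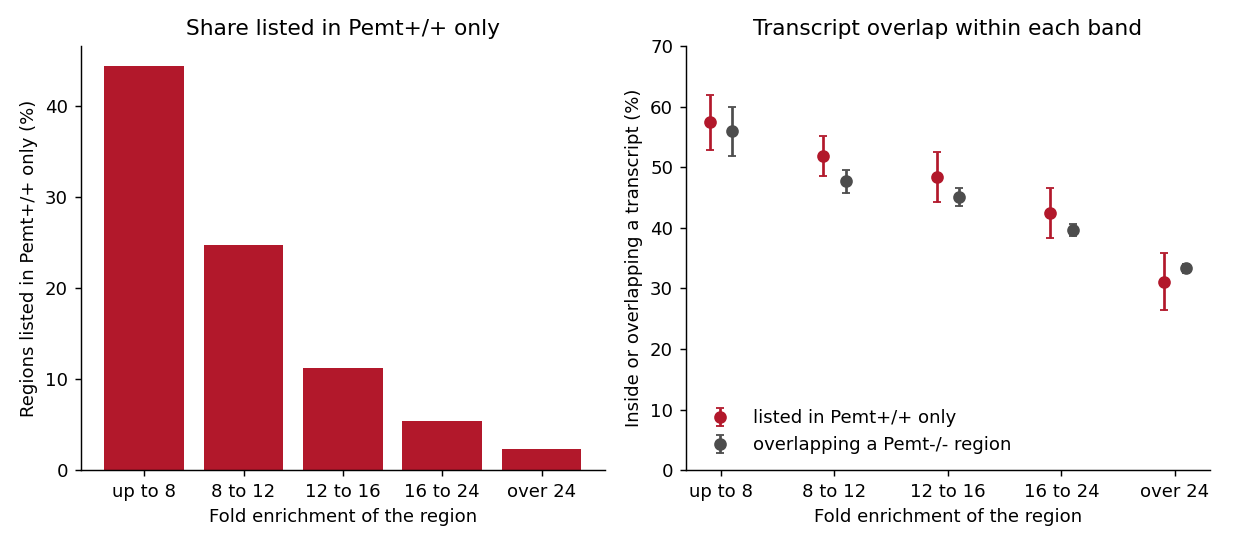
Left, the share (%) of regions with 25 to 79 tags that were Pemt+/+-only in each band of fold enrichment, which falls from 44.4% up to 8 fold to 2.34% above 24 fold. Right, the share (%) of Pemt+/+-only (red) and shared (grey) regions that overlapped a transcript in each band, with 95% Wilson intervals, which overlap in every band.

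The region itself was longer in the Pemt+/+-only set, with a median of 612.5 bp (95% interval of the median 604 to 623) against 565 bp (563 to 568), and against 527 bp when shared regions were weighted to the same tag numbers. This order turned round at the same fold enrichment, where the shared median was 663 bp. Inside transcripts, the position along the gene could be worked out where the list also gave regions upstream and downstream of the same transcript, for 454 Pemt+/+-only and 3417 shared regions. The last 20% of the transcript held 31.5% of the former and 26.2% of the latter, and the first 20% held 11.7% and 14.9%. Only 12 of 643 Pemt+/+-only regions with a known start (1.87%, 1.07 to 3.23) lay inside the transcript within 2 kb of it, against 2.17% of shared regions.

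Genes overlapped by Pemt+/+-only regions were shorter when each region was counted. The longest overlapped gene had a median length of 86.5 kb (95% interval 81.0 to 93.3, 1324 regions with a matched gene) against 110.5 kb (107.8 to 113.9, 12408 regions), and 109.3 kb after weighting to tags. The share of regions that were Pemt+/+-only was 11.4% (9.87 to 13.2) in genes of up to 20 kb, 11.7% from 20 to 50 kb, 10.6% from 50 to 100 kb, 8.93% from 100 to 200 kb, 8.28% from 200 to 500 kb and 6.50% (5.29 to 7.97) above 500 kb, against 9.63% over all regions that overlap a transcript. Weighting to fold enrichment brought the shared median to 97.0 kb. With each gene counted once the order was the reverse, 71.9 kb for the 1002 genes with a Pemt+/+-only region against 52.2 kb for the 5299 genes with a shared region. Both kinds were held by 779 genes (median 93.6 kb), while 223 held a Pemt+/+-only region and no shared one (median 21.3 kb). The cause of the reversal was not tested.

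**Figure D4:**
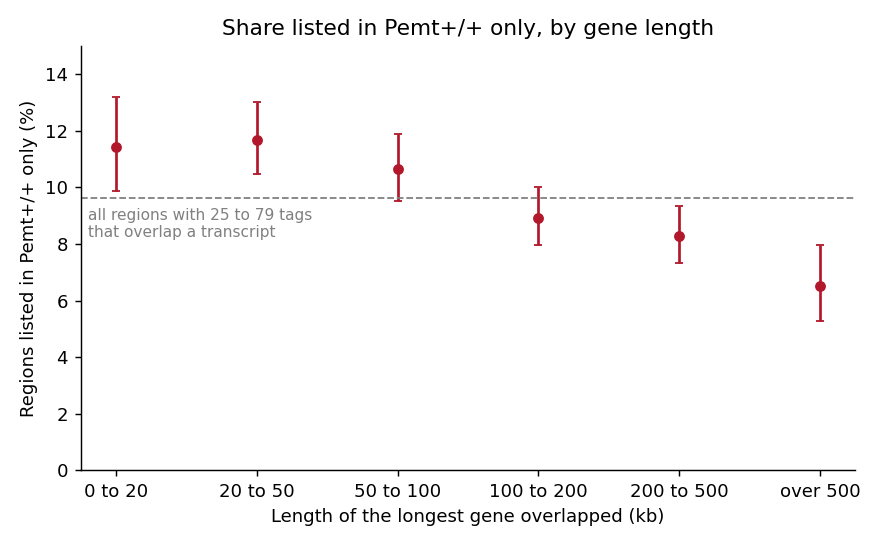
Points give the share (%) of regions with 25 to 79 tags that were Pemt+/+-only, by the length in kb of the longest gene they overlapped, with 95% Wilson intervals. The dashed line is the share over all regions of that tag range that overlap a transcript (9.63%), and the points fall from 11.4% in genes of up to 20 kb to 6.50% in genes above 500 kb.

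By chromosome, the share ran from 6.18% (5.19 to 7.34) on chromosome 6 and 6.54% on chromosome 2 to 9.71% on chromosome 8, 9.86% (8.48 to 11.4) on chromosome 15 and 10.1% (7.02 to 14.3) on chromosome X. Chromosome Y had 2 of 15, and unplaced sequence 17 of 123 (13.8%, 8.81 to 21.0). In 444 windows of 5 Mb with at least 30 regions of 25 to 79 tags the share had a median of 6.90% (quartiles 4.28 and 9.68), and 20 windows held none. The 5 highest windows, whose place was picked on these values, were chromosome 15 at 75 to 80 Mb (15 of 74, 20.3%), chromosome 17 at 25 to 30 Mb (18 of 98, 18.4%) and at 35 to 40 Mb (8 of 47, 17.0%), chromosome 8 at 45 to 50 Mb (34 of 203, 16.7%) and chromosome 16 at 90 to 95 Mb (33 of 203, 16.3%). The first holds Myh9, a non-muscle myosin, with 2 regions, and the last holds Hlcs, which attaches biotin to carboxylases, with 3. The window with Pemt itself, chromosome 11 at 55 to 60 Mb, had 7 of 63 (11.1%, 5.49 to 21.2) and ranked 76 of 444.

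A gene was given for 1544 of the Pemt+/+-only regions, inside it or within 10 kb. They named 1379 of the 7769 gene symbols with a region of 25 to 79 tags, and 1134 of the 1379 had a single one. The 10 genes described next were picked for having the most Pemt+/+-only regions, so their counts are high by choice. Over all regions of that tag range near a transcript the Pemt+/+-only share was 9.26%. Grip1, which encodes a scaffold protein of glutamate receptors, had the most, with 12 of its 59 regions of 25 to 79 tags (20.3%). These 12 held 25 to 36 tags (median 28) and the other 47 held 25 to 73 (median 38), with median fold enrichment of 10.5 and 15.2. The Pemt+/+-only regions thus lay at the lower end of the range of the shared ones, and the 47 shared regions had 0.577 times as many tags in the Pemt-/- library. Dst, which encodes the cytoskeletal linker dystonin, had 10 of 34 with 25 to 53 tags. Zfhx3, a zinc finger homeobox factor, had 8 of 23 with 28 to 45 tags. Map3k1, a kinase upstream of JNK signalling, had 7 of only 12 (58.3%), and their tag numbers were 27, 30, 37, 39, 39, 44 and 72. Its 5 shared regions held 33 to 73 tags and had 0.685 times as many tags in the Pemt-/- library, a ratio above the median of all pairs (0.585).

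Ccdc6, known as a fusion partner of RET in thyroid cancer, had 7 of 14 with 26 to 42 tags, and Cit, the citron kinase of cytokinesis, had 7 of 18 with 25 to 44 tags. Fryl had 6 of 29. Dync1h1, the heavy chain of cytoplasmic dynein, had 5 of 9, with 28, 47, 50, 50 and 74 tags, and its 4 paired shared regions had 0.457 times as many Pemt-/- tags. Foxp1, a forkhead transcription factor, had 5 of 19, and Ttn, the giant muscle protein titin, 5 of 27. In all 10 genes the median fold enrichment of the Pemt+/+-only regions lay below that of the shared regions of the same gene. It was 6.12 against 8.63 in Map3k1 and 10.5 against 15.2 in Grip1, but nearly equal in Dync1h1 (8.49 against 8.785).

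**Figure D5:**
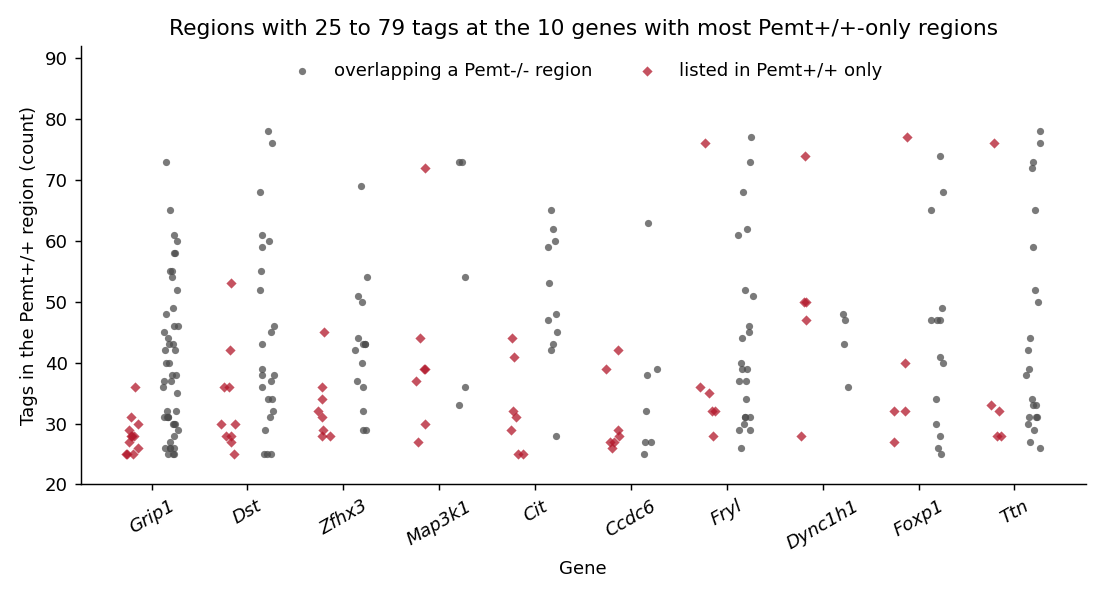
Each point is a Pemt+/+ region with 25 to 79 tags (y axis, count) at the 10 genes with the most Pemt+/+-only regions, red diamonds for Pemt+/+-only and grey circles for shared regions. The red points of Grip1 lie at 25 to 36 tags under grey points that reach 73, whereas Map3k1, Fryl, Dync1h1, Foxp1 and Ttn each have a red point above 70 tags.

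The Pemt+/+-only regions with most tags were broad and of low fold enrichment. The highest, at chr2:32068762-32070868 in mm9, held 78 tags over 2107 bp at 7.18 fold, with no transcript within 10 kb and a Pemt-/- region of 17 tags 336 bp away. Next were regions inside Foxp1 (77 tags, 9.08 fold), Fryl (76 tags, 7.25 fold) and Ttn (76 tags, 8.80 fold), and an unplaced sequence with 75 tags. The region inside Dync1h1 held 74 tags at 8.59 fold, 5765 bp from the nearest Pemt-/- region. A region with 74 tags lay inside Pkdrej and 9669 bp downstream of Ppara, the receptor that turns on fatty acid oxidation in the liver, at 7.50 fold and 447 bp from a Pemt-/- region of 27 tags. The region in Map3k1 held 72 tags and its nearest Pemt-/- region, 1893 bp away, held 71. The last of the 10 were the region at Gnas described below and chr7:6558109-6559557, both with 71 tags and ahead, by their score, of another region with as many.

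The 10 with the highest scores were of another kind, strongly enriched and mostly short. They were 249 to 635 bp long, against a median of 612.5 bp for all Pemt+/+-only regions. They held 26 to 57 tags at 26.7 to 52.8 fold, and 9 of the 10 had no transcript within 10 kb. Of all Pemt+/+-only regions above 24 fold, 60.6% had none. The highest, chr6:123634415-123634718, had a score of 396 with 34 tags in 304 bp at 52.8 fold, and the nearest Pemt-/- region was 14391 bp away. The next, chr17:27400731-27401075, had 37 tags at 47.4 fold and lay 5566 bp from a Pemt-/- region. The only 1 with a gene lay 5974 bp upstream of a transcript listed for Thumpd3, with 39 tags at 38.0 fold and no Pemt-/- region for 63472 bp. Regions above 24 fold made up 368 of the 2794.

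A transcript 5′ end was overlapped by 21 Pemt+/+-only regions (0.752%, 0.492 to 1.15) and by 121 shared regions (0.373%, 0.313 to 0.446). The difference was 0.378 points (0.109 to 0.778), and 0.254 points after weighting to fold enrichment. The weighted share of shared regions, 0.497%, lay within the interval of the Pemt+/+-only share. No interval was worked out for the weighted difference. A 3′ end was overlapped by 32 (1.15%) and 268 (0.827%), a difference of 0.318 points with an interval from -0.0305 to 0.795. The region with most tags at a 5′ end lay on the Gnas locus (71 tags, 8.44 fold), at the start of one Gnas transcript and 1377 bp upstream of Nespas, and no Pemt-/- region was listed for 9424 bp. Olfr281, an olfactory receptor, had 46 tags, and Tex11, a meiosis gene on chromosome X, and Sirt5 had 45 each. The Tex11 region was only 81 bp from a Pemt-/- region of 10 tags and the Sirt5 region 242 bp from one of 44 tags. Nap1l5 had 42 tags at 19.9 fold with no Pemt-/- region for 50203 bp. Slc38a4, an amino acid transporter of the liver, had 39 tags at 9.72 fold with 12092 bp to the nearest. The others of the 10 were 4931417E11Rik (38 tags), 4930594C11Rik (31 tags), Gm7027 (30 tags) and Slc2a5 (30 tags, 10.4 fold). Klb held 29 tags at 6 fold and Pygm 28 tags at 24.1 fold, and both were picked after their values were seen, for the sequences above.

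Gnas, Nap1l5 and Slc38a4 are imprinted genes, and a list of 51 symbols of imprinted genes was written after these regions had been seen, so its count is a description chosen on these values. Of 66 regions with 25 to 79 tags at or within 10 kb of 29 of these genes, 13 were Pemt+/+-only (19.7%, against 9.26% over all regions near a transcript), with 25 to 71 tags. Median fold enrichment of the 66 was 17.6, against 22.3 over all regions with 25 to 79 tags. The 22.3, unlike the 9.26%, includes regions with no transcript within 10 kb. The part of fold enrichment in the count was not tested. At Mest, a gene expressed from the paternal copy, a region of 61 tags ended 309 bp before the transcript start and a region of 40 tags lay inside the gene. The nearest Pemt-/- regions were 337 bp and 2208 bp away with 22 tags. A shared region of 29 tags further upstream of Mest had 22 Pemt-/- tags. Peg3, also expressed from the paternal copy, had Pemt+/+-only regions of 48, 54 and 25 tags among 7, and its shared region just before the start had 50 Pemt+/+ and 25 Pemt-/- tags. Impact had 1 region, with 32 tags and no Pemt-/- region for 21805 bp. The others lay at Plagl1 (27 tags), Kcnk9 (37 tags), Usp29 (32 tags) and a further site in Gnas (31 tags). Their nearest Pemt-/- regions were 708, 156, 1504 and 708 bp away in that order, with 43, 12, 26 and 18 tags. For the Peg3 regions of 48, 54 and 25 tags the gaps were 421, 317 and 730 bp, to Pemt-/- regions of 27, 27 and 25 tags.

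Other regions at the imprinted genes were listed in both mice. The 49 paired shared regions at these genes held a median 0.574 times as many Pemt-/- tags (0.206 to 1), close to the 0.585 of all pairs. The lowest ratios were at Peg10, with 75 Pemt+/+ and 16 Pemt-/- tags, and at Kcnq1, with 63 and 13. Near the other end, Plagl1 had regions with 27 and 27 and with 48 and 43 tags, and Slc38a4 a region with 58 and 50. At the start of Nnat the tags were 62 and 39. The region at the start of Mcts2 had 78 and 54 tags.

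Gene groups were counted by the regions with 25 to 79 tags inside or within 10 kb of their genes, and are read against the share over all such regions near a transcript, 1544 of 16677 (9.26%). Among the genes that the study names, which were partly chosen on these animals and so are no independent evidence, 2 are given here. Trp53, which encodes p53, had 1 of 2, inside the gene with 25 tags at 11.98 fold and 558 bp from a Pemt-/- region. Pnpla3, a lipid droplet protein linked to fatty liver, had its only region of that range 7464 bp upstream, with 25 tags at 33.8 fold and 6340 bp to the nearest Pemt-/- region.

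Genes of phosphatidylcholine synthesis had 3 of 12 (25.0%, 8.89 to 53.2). Lpcat1 had a region over its 3′ end with 29 tags and Lpcat2 a region inside it with 30 tags, and both enzymes reacylate lysophosphatidylcholine. A region with 33 tags lay 6887 bp downstream of Chkb, a choline kinase, and inside Cpt1b. The methyl donor cycle and the enzymes of DNA methylation had 0 of 22, which allows a share of up to 13.6%, and these 22 shared regions had a median 0.635 times as many Pemt-/- tags. Hepatocyte genes had 4 of 36 (11.1%, 4.41 to 25.3). They were Acacb, the mitochondrial acetyl-CoA carboxylase, with 27 tags inside the gene, Srebf2, the regulator of cholesterol synthesis, with 28 tags, Onecut2, a liver transcription factor, with 26 tags at 35.2 fold, and the region near Ppara. The p53 pathway and cell cycle had 3 of 48 (6.25%, 2.15 to 16.8), namely Trp53, Apaf1 of the apoptosome with 29 tags and Cdk6 with 31 tags. The intervals of phosphatidylcholine synthesis, hepatocyte genes and the p53 pathway held the background of 9.26%, as did the limit for the methyl donor cycle, with 12 to 48 regions a list.

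In several larger families the interval of the share held the background of 9.26%. Solute carriers and ABC transporters had 43 of 478 (9.0%, 6.75 to 11.9), among them Slc7a1 (47 tags), and zinc finger proteins 26 of 292 (8.90%, 6.15 to 12.7). Cadherins and protocadherins had 13 of 157 (8.28%, 4.90 to 13.7), led by regions of 69 and 67 tags in Fat1, and olfactory and vomeronasal receptors 11 of 182 (6.04%, 3.41 to 10.5), led by Olfr281 and Vmn2r91. Nuclear receptors had 7 of 61 (11.5%, 5.67 to 21.8), among them Esrrg with 59 tags. Potassium channels had 16 of 122 (13.1%, 8.24 to 20.2), led by Kcnc2 with 50 tags and Kcnu1 with 37 tags, at a median fold enrichment of 20.8 for all 122. The list of synaptic adhesion and scaffold genes had 5 of 192 (2.60%, 1.12 to 5.95), among them Robo1 and Ctnnd2. Glutamate and GABA receptors had 2 of 76 (2.63%, 0.725 to 9.10), both in Grid1. The intervals of these lists, which cover counting error only, lay below 9.26%. These lists do not stand for all genes of synapses, since Grip1, with its 12 of 59, is in neither. The regions of both lists had medians of 29 and 26.2 fold against 22.3 over all regions, including those far from any transcript. The part of fold enrichment in these shares was not tested.

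The smaller lists gave 4 of 60 for collagens, 3 of 54 for cytokines and their receptors, of which Ccr4 had 49 tags, 2 of 28 for keratins, 1 of 33 for cytochrome P450 enzymes (Cyp20a1, 29 tags), 1 of 17 for homeobox and T-box factors (Meis1, 28 tags), 1 of 16 for ribosomal proteins (near Rpl34, 27 tags) and 1 of 15 for Wnt genes (Wnt5b, 36 tags). Conjugation enzymes had 0 of 16 (up to 18.8% allowed), serpins 0 of 13 (up to 23.1%) and histone genes 0 of 3, which allows any share. No gene symbol of the list matched the microRNA genes.

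The authors deposited a shorter list for the Pemt+/+ mouse too, and regions with the same start and end stood in it for 790 of the Pemt+/+-only regions (28.3%) and 972 of the shared regions (2.999%), against 5.00% of all regions with 25 to 79 tags. How that list was made is not given in the sources used here, and since it may rest on the same contrast nothing is read from the difference. Among the Pemt+/+-only regions, the 790 had a median fold enrichment of 19.1 and length of 530.5 bp, against 10.9 fold and 651 bp for the other 2004, at the same median of 29 tags. The share in the shorter list was 6.31% up to 8 fold and 73.6% above 24 fold. None of the 2794, chosen for overlapping no region of the longer Pemt-/- list, overlapped a region of the shorter Pemt-/- list. The false discovery rate printed there for the 790 ranged from 21.6% to 100%, with a median of 32.1%.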

How the data were processed

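Liver DNA of 1 Pemt-/- and 1 Pemt+/+ mouse was enriched for methylated fragments and sequenced on a Genome Analyzer IIx. The submitters' processing notes name CASAVA 1.8.2, Bowtie and the build mm9. For each mouse the authors deposited a longer and a shorter table of enriched regions. A row pairs a region with a RefSeq transcript no more than 10 kb away, or gives no transcript where none lies that near. In the deposited lists, tags are read counts per region, the score is -10log10 of the caller's p-value, the fold is a ratio to background, and the false discovery rate is a percent. Region length and distances are in bp. Peak caller settings, control, duplicate handling and total reads are not given in the sources used here, so depth is known only as tags in listed regions, and both control and duplicates change tags and scores.

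Regions were taken once each, and overlap with the Pemt-/- list of any tag number was found with bedtools 2.31.1 in Python 3.11.15 (pandas 2.3.3, scipy 1.17.1). The groups were compared by shares with 95% Wilson and Newcombe intervals and by medians, without p-values, because there was 1 library per genotype. Shared regions were also weighted to the tag numbers, or to the whole-number fold enrichment, of the Pemt+/+-only regions. Gene lengths and promoter sequences came from RefSeq (GRCm38.p6), matched by gene identifier for 99.9% and 99.8% of the regions overlapping a transcript. The ends of transcripts in mm9 came from the distances in the lists. These gave 1 position per transcript when read by strand for 99.7% of 4807 transcript starts. The steps were checked on simulated lists. The regions and gene lists were chosen with earlier results of these data known. Named regions are the 10 with most tags, the 10 with the highest score, the 10 with most tags at a 5′ end, the 10 genes with most regions, all at 5 lists of genes, and the 2 with most tags in each other list. Some named regions, and the count for the genes the study names, are left out here. The imprinted list, the tag ratios and the weighting to fold were added after the regions were seen.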

Additional observations from a re-analysis of the deposited data

How the results depend on the processing

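The number of Pemt+/+-only regions was 1206 from 30 tags up, 1860 at a score of at least 100, 4324 when an overlap had to reach 50% of the region, and 10043 when only the upper 50% of the Pemt-/- list by score was used. The shares of the tag range were then 5.01%, 5.65%, 12.3% and 28.5%, and 6.81% when a gap above 500 bp was required. The excess of regions overlapping a transcript, 9.05 points, was 12.2 points from 30 tags up, 5.43 points at a score of at least 100 and 1.55 points after weighting to fold enrichment. The ratio of median region lengths, 1.08, was 1.20 from 30 tags up, 1.16 after weighting to tags, 1.24 with the 50% overlap, 1.03 at a score of at least 100, and turned round to 0.924 after weighting to fold. The ratio of median gene lengths, 0.783, was 0.891 after weighting to fold and turned round to 1.38 with each gene counted once. The causes of these moves were not tested. The excess at 5′ ends stayed between 0.118 and 0.490 points under every alternative, and its interval held 0 with the upper 50% of the Pemt-/- list. For the weighted alternatives no interval of this excess was worked out, so whether it would hold 0 there is not known. Counting autosomes alone moved none of these values beyond its interval. Counting both Pemt-/- lists left every value the same and is no separate check. No Pemt+/+-only region overlapped the shorter Pemt-/- list, so the set could not change. No paired analysis was possible because only 1 mouse of either genotype was sequenced, and for the same reason no replicate could be left out. The part of sequencing depth in the absence of Pemt-/- regions was not tested.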
